A study of Mus musculus with 18 samples.

Results

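Smooth muscle and pericyte genes were examined in mouse heart through 8 genes: Acta2, Tagln, Myh11, Cnn1, Actg2 and Smtn of the smooth muscle contractile apparatus, and Pdgfrb and Rgs5 of pericytes. They were chosen by symbol: a probe set, the group of short oligonucleotides that measures 1 transcript, was taken where the platform annotation gives it 1 of these 8 symbols. This gave 9 probe sets of the 12488 on the array, for 8 of the 8251 genes the array names, with a pair of probe sets for Rgs5. At 3 weeks the hearts with the transgene had more Acta2 and Tagln signal and less Myh11 and Rgs5 signal than FVB hearts. The Acta2 and Tagln calls held in all 29 alternatives tried. Those of Myh11 and Rgs5 were lost without 3 doubted FVB arrays described below, a fit with 1 FVB array left per labelled sex. Their log2 differences there were -0.44 for Myh11 (-0.66 with all arrays) and -0.98 for Rgs5 (-1.04 with all arrays). The second Rgs5 probe set was not called (adjusted p = 0.0566). Actg2, Smtn and Pdgfrb did not pass the test, and Cnn1 was near the lower limit of measurement.

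The hearts carrying the transgene, called TG here, came from mice in which tumour necrosis factor alpha (TNF-alpha) is made by a transgene specific to the heart, per the labels. The TG groups were females of 3 weeks (3 arrays), males of 3 weeks (3 arrays), males of 13 weeks (3 arrays) and females of 40 weeks (3 arrays), and their comparison groups were FVB females (2 distinct arrays) and FVB males (3 arrays) of 3 weeks. The promoter behind the transgene, the strain that carries it, the number of founder lines and any pooling of hearts are not stated in the labels. No FVB heart older than 3 weeks was analysed, and the 13 week and 40 week hearts are of different sexes, so age cannot be told apart from transgene against FVB, nor age from sex between the later groups. Whether the arrays of a group stand for different mice is not stated, and p-values here speak only of the spread between arrays, which may be technical.

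Smooth muscle cells form the wall of arteries and contract through filaments of smooth muscle actin and smooth muscle myosin, and pericytes are the contractile cells that sit on capillaries. Together they are called mural cells. Many genes of the contractile apparatus are switched on by serum response factor, which binds a short promoter element called the CArG box, with myocardin or the myocardin-related factors as partners. Acta2 is also made by myofibroblasts, the fibroblasts that contract and lay down matrix after injury, and by heart muscle cells early in development. Pericytes depend on platelet-derived growth factor B, which endothelial cells release and which the receptor Pdgfrb binds.

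Promoters are shown because Acta2 and Tagln are known targets of serum response factor. Genes with a CArG box moved both ways at 3 weeks, as did all probe sets tested (24.7% called higher and 21.9% lower). Whether serum response factor had a part in any change was not tested. RefSeq promoters of the C57BL/6J reference (GRCm38.p6, a different strain from FVB) were held for 4 of the 8 members: Acta2, Cnn1, Rgs5 and Smtn. Tagln, Myh11, Actg2 and Pdgfrb had no entry. A CArG box was searched as CC, then 6 bases of A or T, then GG, allowing at most 1 C or G among the 6, over 250 bases before to 50 bases after the start site. The element is its own reverse complement, so 1 search covers both strands. It was found in 3280 of all 32851 promoters (9.98%), and without the allowance in 535 (1.63%). Acta2 held 2 matches, beginning 84 and 34 bases before the start site, each with 1 C or G inside. Cnn1, Rgs5 and Smtn held none in this window. Among the non-members described further on, Actg1, the cytoplasmic gamma actin, held an exact match 90 bases before its start, and Fhl2, a partner protein of serum response factor, held an exact match at each of its 2 start sites. The sequences run 5′ to 3′ on the strand of the gene up to the base before the start site, and capitals mark the CArG boxes. Acta2 lies at chr19:34255374-34255503 on the minus strand, Actg1 at chr11:120348496-120348625 on the minus strand, and the Fhl2 start shown at chr1:43163962-43164091 on the minus strand.
Acta2 promoter: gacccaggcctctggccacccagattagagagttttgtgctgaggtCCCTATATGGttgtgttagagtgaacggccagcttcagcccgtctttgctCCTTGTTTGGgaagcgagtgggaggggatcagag
Actg1 promoter: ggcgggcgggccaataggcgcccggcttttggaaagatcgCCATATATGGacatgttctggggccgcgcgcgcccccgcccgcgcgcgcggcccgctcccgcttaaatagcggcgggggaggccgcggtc
Fhl2 promoter: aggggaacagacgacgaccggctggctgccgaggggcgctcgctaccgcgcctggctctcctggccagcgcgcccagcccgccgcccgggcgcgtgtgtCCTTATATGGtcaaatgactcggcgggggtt
Actg1 rose and Fhl2 fell at 3 weeks with such a box near the start, as given below with their values. They are examples, and other listed genes, Acta1 and Actc1 among them, also held such boxes.

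Signal is the authors' deposited intensity of a probe set on a linear scale, with arrays scaled to a common level. Acta2, Tagln and the other members were read on the log2 scale in a limma fit of all 17 distinct arrays, with 7453 probe sets tested and Benjamini-Hochberg adjustment over all of them. A difference is called where the adjusted p is under 0.05. The deposited columns of FVB females 1 and 2 were identical and were counted as 1 array. That array stood apart, with a Spearman correlation of 0.775 to 0.856 with the others, against 0.891 to 0.977 among the others. Its 5th percentile of signal was 37.9, against 4.1 to 8.9 on the other 3 week arrays. Xist, the transcript of the inactive X chromosome in females, had a signal over 1000 on 2 of the 3 FVB arrays labelled male, so sexes are given as labelled. Called member results that rest on these 3 FVB arrays are given with and without them. Without them 1 FVB female and 1 FVB male array are left, so every such value rests on 1 FVB array per labelled sex. Tnf itself averaged 9404 ± 2170 in TG hearts and 43.9 ± 45.8 in FVB hearts of 3 weeks (SD, n = 6 and 5). The heart muscle genes Myh6, Actc1, Tnnt2, Tnni3 and Myl2 were measured above the floor on every array, and all 5 of them fell in TG hearts (log2 differences of -1.09 to -0.70). The ratio of the 3′ to the 5′ control probe sets, a sign of RNA integrity, was compared at 3 weeks for Actb and Gapdh. For Actb it was 1.26 ± 0.10 in TG and 1.71 ± 0.26 in FVB hearts (two-sided exact permutation test, p = 0.00433). For Gapdh it was 1.0 ± 0.089 in TG and 1.06 ± 0.078 in FVB hearts (two-sided exact permutation test, p = 0.292). A difference was thus seen with Actb and not with Gapdh. The part of RNA integrity in the member results was not tested.

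At 3 weeks 4 of the 8 member probe sets tested were called, 2 higher and 2 lower in TG hearts. Over all probe sets 46.6% were called, 24.7% higher and 21.9% lower, so the members' share is close to the background. The median difference of the 7 member genes tested, 0.07 on the log2 scale, lies beside -0.0065 for all probe sets tested. The 2 called genes of each direction lie on either side of that median. In whole hearts fewer cells of a type and less RNA per cell cannot be told apart.

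**Figure D1:**
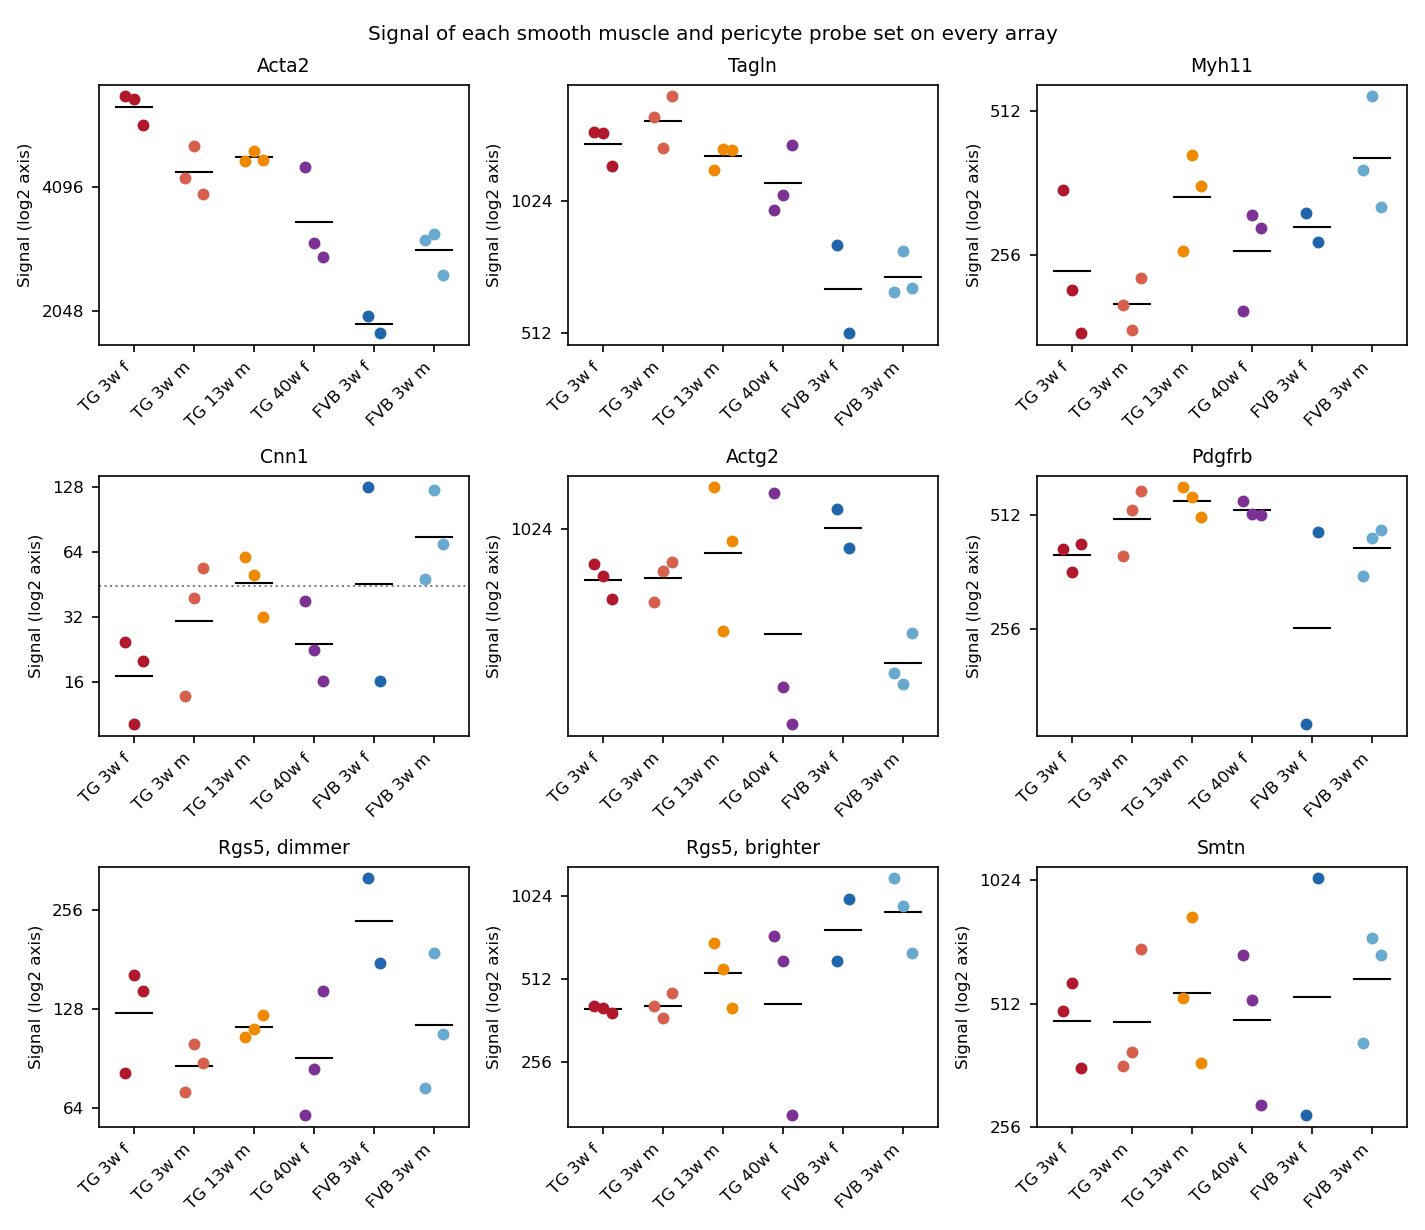
Deposited signal (vertical axis, log2 spacing) of each of the 9 member probe sets on every array, by group; each point is 1 array, the bar is the group's mean of log2 signal, and the dotted line for Cnn1 is the floor of 44.7. All 6 TG arrays of 3 weeks lie above all 5 FVB arrays for Acta2 and Tagln and below them for the brighter Rgs5 probe set.

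Acta2 encodes alpha smooth muscle actin, the main actin of vascular smooth muscle. Its signal was 6809, 6702 and 5787 in TG females and 4319, 5155 and 3949 in TG males of 3 weeks. It was 1997 and 1811 in FVB females and 3048, 3155 and 2501 in FVB males. Every TG array was above every FVB array. By the labels, TG females were above TG males, and FVB females below FVB males. The FVB order rests on labels that Xist puts in doubt on 2 of the 3 FVB arrays labelled male. The means were 5453 ± 1196 in TG and 2502 ± 604 in FVB hearts (SD, n = 6 and 5). The fitted log2 difference was 1.19 (SE 0.15), a 2.28-fold higher level in TG hearts (limma, adjusted p = 7.34e-06). Without the 3 FVB arrays named above it was 1.33 (adjusted p = 0.000167). Across 29 alternative settings it stayed between 1.14 and 1.33 and was called in all 29.

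Tagln encodes transgelin, also called SM22-alpha, an actin-bundling protein of smooth muscle. Its signal was 1468, 1463 and 1227 in TG females and 1586, 1348 and 1770.2 in TG males. It was 814 and 513 in FVB females and 635, 788 and 650 in FVB males. The lowest TG array was again above the highest FVB array, here with little difference between the sexes of a genotype. The means were 1477 ± 188 in TG and 680 ± 123 in FVB hearts (SD, n = 6 and 5), and the fitted difference was 1.14 (SE 0.15, adjusted p = 1.65e-05). It was called in all 29 alternatives, and was 1.35 without the 3 FVB arrays (adjusted p = 6.06e-05). Acta2 and Tagln were the members higher without overlap of the arrays, a state that 14.5% of all probe sets tested shared.

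Myh11 encodes the smooth muscle myosin heavy chain, the motor of the contractile filament and a gene largely restricted to smooth muscle. Its signal was 350, 217 and 176 in TG females and 202, 179 and 229 in TG males. It was 314 and 273 in FVB females and 386, 550 and 324 in FVB males. On 5 of the 6 TG arrays the signal was below every FVB array, and the first TG female was the exception. The means were 225 ± 64.3 in TG and 369 ± 109 in FVB hearts (SD, n = 6 and 5). The fitted difference was -0.66 (SE 0.21, adjusted p = 0.0156), a level 1.58-fold lower in TG hearts. The call was lost with array weights (adjusted p = 0.0671), without the duplicated FVB female array (0.0523) and without the 3 FVB arrays (-0.44, adjusted p = 0.219).

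Acta2 and Tagln were also set against Myh11 within each array, where a scaling factor cancels. The log2 ratio of Acta2 to Myh11 signal, taken relative to its mean over FVB hearts, was 1.34 to 2.27 on the 6 TG arrays of 3 weeks and -0.25 to 0.21 on the 5 FVB arrays. For Tagln over Myh11 the ranges were 1.17 to 2.07 in TG and -0.38 to 0.47 in FVB hearts. On the TG arrays of 13 weeks the Acta2 ratio was 0.83 to 1.41, and on those of 40 weeks 0.48 to 1.78, so all 12 TG arrays were above all 5 FVB arrays. Acta2 signal by itself overlapped at 40 weeks, where 2 arrays read 3005 and 2773 and FVB males ran from 2501 to 3155. The ratios use the same signals as the results above, with Acta2 and Tagln higher and Myh11 lower, so they add no support to them. How often other gene pairs separate in this way was not computed. The ratios show unequal change of the paired genes, not the direction of either, and are given with no test.

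**Figure D2:**
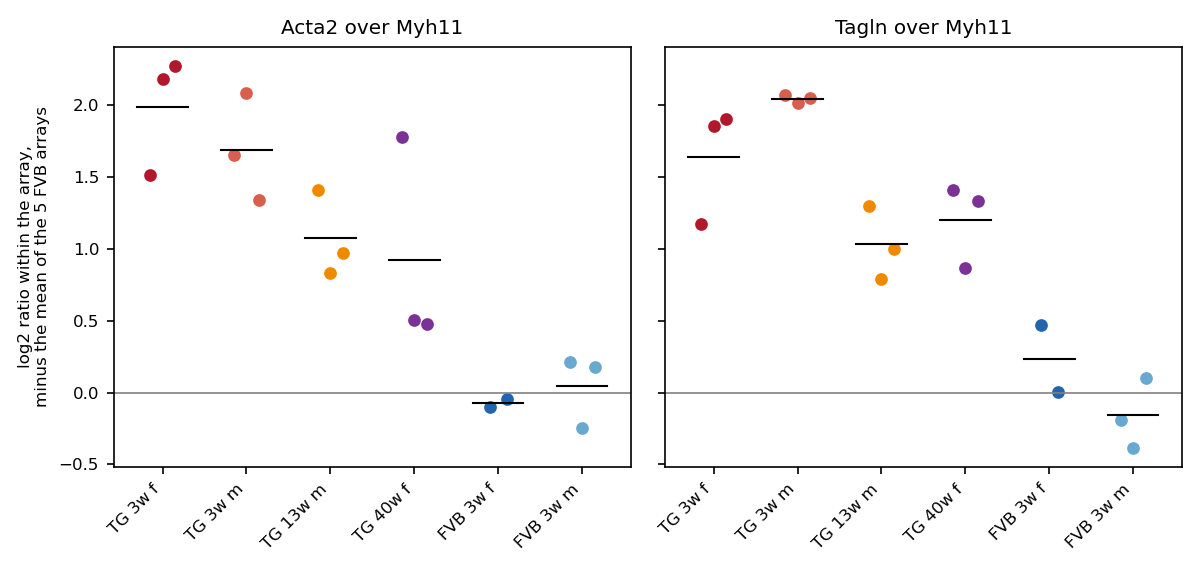
Log2 ratio of Acta2 to Myh11 signal (left) and of Tagln to Myh11 signal (right) within each array, minus the mean over the 5 FVB arrays; points are arrays and bars are group means. The TG arrays of 3 weeks lie at 1.17 or more in both panels, and no FVB array exceeds 0.47.

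Cnn1 encodes calponin, which binds actin and restrains the myosin motor in differentiated smooth muscle. Its signal was 24.5, 10.2 and 20.0 in TG females and 13.7, 39.2 and 54.2 in TG males. It was 128 and 16.1 in FVB females and 48.2, 124 and 70.1 in FVB males. Signals under 44.7, the 25th percentile of all values, were treated as a floor without order, and 5 of 6 TG arrays but 1 of 5 FVB arrays lay under it. The probe set was too dim for the main test. With no filter on low values its difference was -0.70 (SE 0.27, adjusted p = 0.0638), where 31.7% of all probe sets were called.

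Actg2 encodes gamma smooth muscle actin, found mainly in visceral muscle. Its probe set carries a suffix that marks sequence shared within a gene family, so signal from other actins cannot be told apart from its own. The signal was 918, 886 and 824 in TG females and 817, 900.3 and 924 in TG males. It was 1088 and 966 in FVB females and 658, 635 and 744 in FVB males. All TG females were thus below both FVB females, and all TG males above all FVB males; such a gap, in either direction, was present for 53.0% of all probe sets in females and 45.9% in males. The pooled difference was 0.07 (SE 0.17, adjusted p = 0.753), with an interval of -0.30 to 0.44. The test of the sex difference itself gave 0.60 (SE 0.35, adjusted p = 0.387) and was not called.

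Smtn encodes smoothelin, a filament-binding protein of contractile smooth muscle. Its signal was 490, 575 and 357 in TG females and 360, 391 and 696 in TG males. It was 274 and 1036 in FVB females and 411, 739 and 674 in FVB males. The FVB females alone spanned a range wider than that of all TG hearts. The difference was -0.27 (SE 0.34, adjusted p = 0.537), and its interval of -0.998 to 0.45 takes in changes of either direction.

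Pdgfrb encodes the receptor that holds pericytes to vessels. Its signal was 417, 362 and 429 in TG females and 399, 530.1 and 592 in TG males. It was 143 and 463 in FVB females and 353, 445 and 469 in FVB males. The ranges overlapped, and the value of 143 came from the array that stood apart. The difference was 0.45 (SE 0.23, adjusted p = 0.117). The size rested on that array: it was 0.02 without it (adjusted p = 0.908) and 0.87 when the other FVB female was left out instead (adjusted p = 0.000253).

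Rgs5 encodes a regulator that shortens G protein signals in pericytes and arterial muscle and is a common pericyte marker. Its brighter probe set read 408, 401 and 384 in TG females and 409, 370.2 and 454 in TG males. It read 597 and 999.9 in FVB females and 1191, 946 and 636 in FVB males. All TG arrays lay below all FVB arrays, as for 9.14% of the probe sets tested, and the TG arrays were close together (404 ± 28.8, n = 6) while the FVB arrays were spread (874 ± 253, SD, n = 5). The difference was -1.04 (SE 0.32, adjusted p = 0.0132), 2.06-fold lower in TG hearts. It was -0.98 without the 3 FVB arrays (adjusted p = 0.0851) and -0.86 without the third FVB female (adjusted p = 0.0584), and was called in 27 of 29 alternatives.

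The dimmer Rgs5 probe set read 82.1, 163 and 146 in TG females and 71.9, 100.4 and 88.2 in TG males. It read 320.0 and 176 in FVB females and 73.8, 190.3 and 108 in FVB males. The groups overlapped among males, and the highest value was from the FVB female array that stood apart. The difference was -0.67 (SE 0.28, adjusted p = 0.0566), in the same direction as the brighter set. It was called in 9 of 25 alternatives, whose adjusted p ran from 0.0232 to 0.142: with the replicate block (0.0311), a higher floor (0.0261), log2 of signal plus 50 (0.045), both identical columns (0.0235), and without FVB male 1 (0.0232), the third FVB female (0.0247), TG female 2 of 3 weeks (0.044), or TG female 1 (0.0478) or 3 (0.0405) of 40 weeks. Over the 17 arrays the 2 Rgs5 probe sets had a Pearson r of -0.04.

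**Figure D3:**
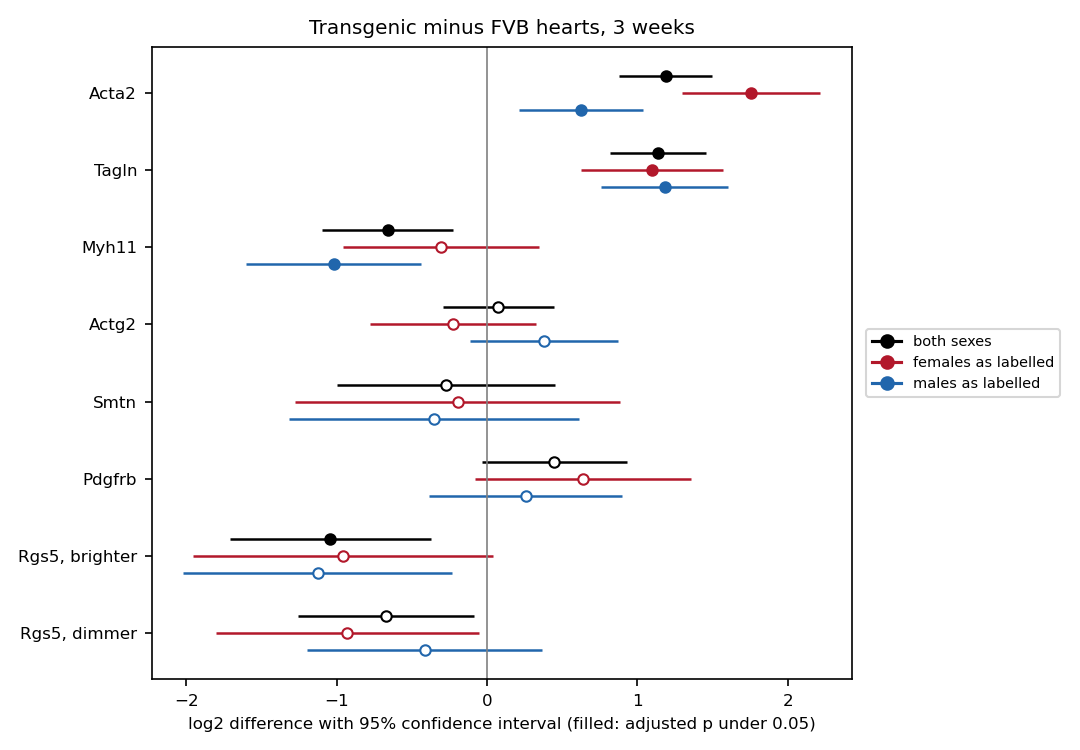
Log2 difference of TG minus FVB hearts at 3 weeks (horizontal axis) for the 8 member probe sets tested, over both sexes, in females and in males as labelled; bars are 95% confidence intervals and filled points have an adjusted p under 0.05. Acta2 and Tagln are filled in all 3 fits, Myh11 in both sexes together and in males, and the brighter Rgs5 probe set in both sexes together.

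Within sexes as labelled, Acta2 differed by 1.75 in females (SE 0.22, adjusted p = 2.5e-05; 1.83, adjusted p = 0.000486, without the 3 FVB arrays) and by 0.62 in males (SE 0.19, adjusted p = 0.0228). The male call was lost with arrays scaled to a common median (0.44, adjusted p = 0.132), without the third FVB male (0.52, adjusted p = 0.103) and without the second TG male (0.52, adjusted p = 0.094), and without the 3 FVB arrays it was 0.83 (adjusted p = 0.0442). Tagln differed by 1.10 in females (adjusted p = 0.00197) and 1.18 in males (adjusted p = 0.000301), and by 1.43 and 1.26 without the 3 FVB arrays (adjusted p = 0.00142 in females and 0.00236 in males). Myh11 differed by -1.02 in males (SE 0.27, adjusted p = 0.00994) and by -0.30 in females (adjusted p = 0.463), and the male call was lost without the second FVB male (-0.81, adjusted p = 0.0559) and without the 3 FVB arrays (-0.68, adjusted p = 0.224). Without the third FVB female, Pdgfrb (1.49, adjusted p = 0.000298) and the dimmer Rgs5 probe set (-1.36, adjusted p = 0.0398) were called in females as well. The brighter Rgs5 probe set differed by -1.13 in males (adjusted p = 0.0544), which was not called but lies at the threshold. It was called there in 15 of 29 alternatives, with an adjusted p of 0.00391 to 0.488 over all 29: with quantile normalisation (0.0417), a common median (0.0244), a higher floor (0.0446), log2 of signal plus 50 (0.0371), a stricter filter that kept 40% (0.038), a variance model with a trend over intensity (0.0414), array weights (0.0178), only the groups compared (0.00925), the replicate block (0.0486) and both identical columns (0.049), and without either FVB female array (0.0473 each), FVB male 3 (0.0457), or TG female 1 (0.0353) or 3 (0.00391) of 40 weeks. In females it differed by -0.96 and was called in 1 of 29 alternatives, without the third TG female of 40 weeks (adjusted p = 0.0199). With all arrays 2 of 8 member probe sets were called in females, where 34.7% of all were, and 3 of 8 in males, where 29.7% were.

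The male minus female difference of the effect was -1.13 for Acta2 (SE 0.29, unadjusted p = 0.00131 from limma, adjusted p = 0.125), so the difference between the sexes was not called. No member was called in that test, and neither was any probe set (0.0% of 7453), although 1228 of them, Acta2 alone among the members, had an unadjusted p under 0.05. For Acta2 the adjusted p over 29 alternatives was 0.0352 to 0.553, with a call when both identical columns were kept and when the third FVB female was left out (-1.06, adjusted p = 0.0352). Quantile normalisation moved the median of all probe sets by -0.13 in males and by -0.12 in the sex difference, and the male values for Acta2, Tagln and Myh11 above are relative to the deposited scaling.

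In the later TG hearts Acta2 was the member with a called change. Its signal was 4741, 5026 and 4779 in TG males of 13 weeks, close to the 4474 ± 618 of TG males of 3 weeks (SD, n = 3), and 4580, 3005 and 2773 in TG females of 40 weeks, all below the 3 TG females of 3 weeks, a gap in either direction that 17.1% of all probe sets had. The fall in females was -0.93 (SE 0.19, adjusted p = 0.0337), 1.91-fold lower at 40 weeks. It was the only member called of 8, where 0.671% of all probe sets were. The call was lost in 9 of 17 fits that left out 1 array, among them those without the second (adjusted p = 0.219) or the third (0.188) TG female of 40 weeks or without the first (0.163), the second (0.121) or the third (0.068) TG female of 3 weeks, and those without FVB male 1, TG male 1 of 3 weeks, or TG male 1 or 3 of 13 weeks (0.0507 to 0.0535), and in the fit of only the groups compared (0.177). The difference stayed between -1.15 and -0.79 with 1 array left out. In males the change at 13 weeks was 0.12 (SE 0.19, adjusted p = 0.96).

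The difference between the age changes in Acta2, females of 40 weeks minus males of 13 weeks, was -1.05 (SE 0.27, unadjusted p = 0.00143, adjusted p = 1). It was not called for any member or probe set (0.0%), and 214 probe sets had an unadjusted p under 0.05. From highest to lowest, mean Acta2 signal ran 6433 ± 561 in TG females of 3 weeks, 4849 ± 155 in TG males of 13 weeks, 4474 ± 618 in TG males of 3 weeks, 3452 ± 983 in TG females of 40 weeks, 2901 ± 351 in FVB males and 1904 ± 132 in FVB females (SD, n = 3, and 2 for FVB females). The first step and the last had arrays that did not overlap, and the 3 steps between had overlapping arrays.

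For Tagln no change with age was called. Its signal was 1202, 1342 and 1339.6 in TG males of 13 weeks and 976, 1059 and 1371 in TG females of 40 weeks. The TG males of 13 weeks were all below those of 3 weeks, a gap in either direction that 15.8% of all probe sets had, and the TG females overlapped. The changes were -0.27 (SE 0.20, adjusted p = 0.83) in males and -0.30 (SE 0.20, adjusted p = 0.76) in females, neither called. Group means ran from 1568 ± 211 in TG males of 3 weeks through 1386 ± 138 in TG females of 3 weeks, 1295 ± 80.3 in TG males of 13 weeks and 1135 ± 208 in TG females of 40 weeks to 691 ± 84.8 in FVB males and 663 ± 213 in FVB females (SD, n = 3, and 2 for FVB females). Neighbours in this order overlapped except at the step between TG females of 40 weeks and FVB males.

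Myh11 read 262, 414 and 357 in TG males of 13 weeks, all above the 3 TG males of 3 weeks. Such a gap, in either direction, was present for 15.8% of all probe sets tested. The Myh11 difference was 0.74 (SE 0.27), with an adjusted p of 0.379. Myh11 read 196, 311 and 292 in TG females of 40 weeks, which overlapped the TG females of 3 weeks (0.14, SE 0.27, adjusted p = 0.951). None of the 8 member probe sets was called between 13 and 3 weeks, where 0.523% of all probe sets were, and Myh11 alone of the members had an unadjusted p under 0.05 there, beside 642 of all probe sets. Mean Myh11 signal was 203 ± 25 in TG males of 3 weeks, 248 ± 90.7 in TG females of 3 weeks, 266 ± 61.5 in TG females of 40 weeks, 344 ± 76.9 in TG males of 13 weeks, 294 ± 28.9 in FVB females and 420 ± 117 in FVB males (SD, n = 3, and 2 for FVB females). FVB females thus stood between the 2 later TG groups, and in the order of these 6 means only neighbours with overlapping arrays occurred.

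The pericyte genes had no called change with age. Pdgfrb read 607, 573 and 505 in TG males of 13 weeks and 558, 517 and 513 in TG females of 40 weeks. The latest group was above all TG females of 3 weeks, a gap in either direction that 17.1% of all probe sets had. The Pdgfrb change was not called (0.40, SE 0.30, adjusted p = 0.795). Rgs5 on its brighter probe set read 691, 555 and 403 in TG males of 13 weeks and 733, 597 and 164 in TG females of 40 weeks. The TG females of 40 weeks covered a wider range than all TG hearts of 3 weeks, and the changes were 0.39 (SE 0.42, adjusted p = 0.92) in males and 0.06 (SE 0.42, adjusted p = 0.991) in females. On its dimmer probe set Rgs5 read 105, 111 and 123 in TG males of 13 weeks and 61.1, 84.3 and 145 in TG females of 40 weeks.

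Among the remaining members, Actg2 read 1162, 749 and 986 in TG males of 13 weeks and 1143, 631 and 562 in TG females of 40 weeks. Smtn read 527, 834 and 366 in TG males of 13 weeks and 673, 523 and 289 in TG females of 40 weeks. Cnn1 read 60.6, 50.1 and 32.1 in TG males of 13 weeks and 38.0, 22.6 and 16.1 in TG females of 40 weeks, and all 3 arrays of 40 weeks were under the floor. The arrays of Actg2 and Smtn overlapped those of the 3 week TG hearts of the same sex, and their changes with age were not called.

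**Figure D4:**
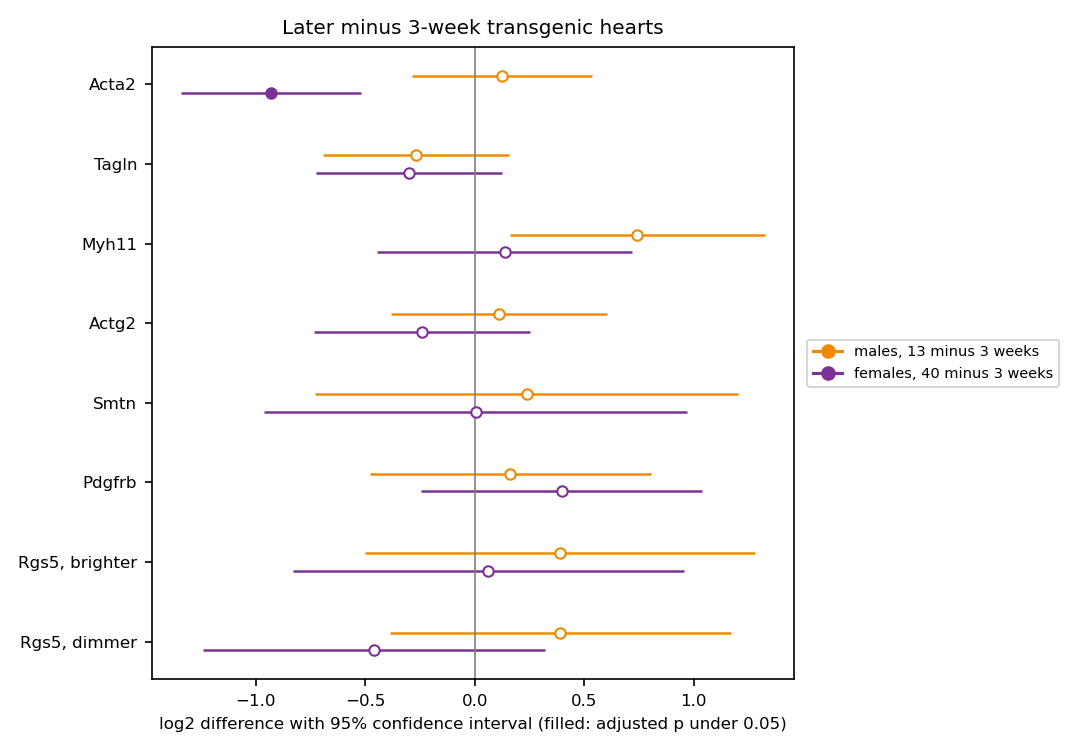
Log2 difference of later minus 3 week TG hearts (horizontal axis) for the 8 member probe sets tested, for males of 13 weeks and females of 40 weeks; bars are 95% confidence intervals and a filled point has an adjusted p under 0.05. Acta2 in females, at -0.93, is the 1 filled point.

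Set against FVB hearts of 3 weeks, which differ from them in age as well as in the transgene, Acta2 and Tagln were the 2 members called in TG males of 13 weeks, where 20.5% of all probe sets were called. Acta2 was higher by 0.75 (SE 0.19, adjusted p = 0.0111) and Tagln by 0.91 (SE 0.20, adjusted p = 0.00357). Acta2 lost its call there with a common median (0.54, adjusted p = 0.0768) and without the third FVB male (0.64, adjusted p = 0.061). Without the 3 FVB arrays the differences were 0.95 for Acta2 (adjusted p = 0.0303) and 0.99 for Tagln (adjusted p = 0.0143). In TG females of 40 weeks 4 of 8 member probe sets were called against FVB females, where 32.5% of all were. Acta2 was higher by 0.82 (adjusted p = 0.00975), Tagln by 0.80 (adjusted p = 0.014) and Pdgfrb by 1.04 (adjusted p = 0.029). Rgs5 on its dimmer probe set was lower by 1.39 (the log2 difference was -1.39, adjusted p = 0.0184). On its brighter probe set Rgs5 was not called (-0.90, limma adjusted p = 0.155). Without the FVB female array that stood apart, the Pdgfrb difference was 0.19 (adjusted p = 0.629). Without the 3 FVB arrays Acta2 was higher by 0.89 and Tagln by 1.13, and the dimmer Rgs5 probe set was too dim to test. With 1 array left out, Tagln lost its call without the third FVB female (0.46, adjusted p = 0.141), and Pdgfrb and Rgs5 lost theirs without the first (0.064 and 0.0675) or the second (0.0621 and 0.0528) TG female of 40 weeks. All 4 calls were lost with array weights, at adjusted p of 0.087 to 0.146, and in the fit of only the groups compared, at 0.0938 to 0.19. These comparisons share their FVB arrays with those of 3 weeks.

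A wider list of contractile partners of smooth muscle was read at 3 weeks. Of 35 genes listed, 23 had a named probe set and 16 were bright enough to test, and 8 rose, 1 fell and 7 were not called (56.2% called, against 46.6% of all probe sets). Their median difference was 0.42, beside -0.0065 for all probe sets. Actn1, the alpha-actinin that cross-links actin in non-muscle and smooth muscle cells, averaged 2560 ± 509 in TG and 923 ± 310 in FVB hearts (1.62, SE 0.17, adjusted p = 1.17e-06). That probe set carries the family suffix, and a second Actn1 probe set rose by 1.76 (adjusted p = 5.33e-06). Csrp1, a LIM protein of smooth muscle, averaged 1818 ± 460 in TG and 709 ± 168 in FVB hearts (1.41, adjusted p = 7.87e-06). Tpm2, beta-tropomyosin of the actin filament, averaged 832 ± 351 in TG and 330 ± 95.9 in FVB hearts (1.30, adjusted p = 0.00015). Tpm4, another tropomyosin, rose by 0.86 (adjusted p = 7.44e-05) and Mylk, the kinase that starts smooth muscle contraction, by 0.50 (adjusted p = 0.007). Myl9, the regulatory light chain that Mylk phosphorylates, averaged 710 ± 149 in TG and 522 ± 178 in FVB hearts and was not called (0.44, adjusted p = 0.0743). Des, desmin, a filament that heart muscle holds as well, was the gene that fell (-0.67, adjusted p = 0.0195). It read 1469 and 3836 on the 2 FVB female arrays and 1203 to 1739 in FVB males, beside 1041 to 1348 in TG hearts. The fall thus leans on 1 high FVB female array, and no fit of Des without the doubted arrays is given. None of the 16 was called in either age change, where 0.523% (13 weeks) and 0.671% (40 weeks) of all probe sets were.

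In the list around serum response factor 17 genes had a probe set and 13 were tested: 1 rose, 5 fell and 7 were not called, with a median difference of -0.35. The share called, 46.2%, is that of all probe sets (46.6%). No probe set of the annotation used carried the symbol Srf or Myocd alone. Fhl2, the LIM protein shown above with its promoter, averaged 7774 ± 1760 in TG and 17556 ± 3172 in FVB hearts (SD, n = 6 and 5) and fell by 1.21 on the log2 scale (adjusted p = 3.95e-05). Gata6, a transcription factor of smooth and heart muscle, had a difference of -0.71 (adjusted p = 0.00519). Mef2a and Prrx1, both transcription factors, had differences of -0.56 (adjusted p = 0.0194) and -0.74 (adjusted p = 0.022). Mrtfa, a myocardin-related partner of serum response factor, was the 1 that rose (0.46, adjusted p = 0.0436), chosen for mention after its value was seen. Fhl2 and Gata6 are also made by heart muscle cells, of whose 13 tested genes 11 fell.

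Of the other actins, the cytoplasmic Actg1 averaged 13774 ± 2103 in TG and 9579 ± 1327 in FVB hearts (0.54, adjusted p = 0.00584). Acta1, the skeletal actin of striated muscle, averaged 9083 ± 1278 in TG and 5123 ± 1369 in FVB hearts (0.81, adjusted p = 0.0337). Actc1, the cardiac actin, averaged 17867 ± 4216 in TG and 28313 ± 5998 in FVB hearts (-0.70, adjusted p = 0.0134). Actb was not called (-1.03, SE 0.49, adjusted p = 0.0955). The probe sets of Actc1 and Actb both carry the family suffix. Actin probe sets thus went up and down in the same hearts, and the called fall, that of Actc1, rests on a probe set with this limit. The part of shared sequence in the Actg2, Actc1 and Actb signals was not tested.

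Of the genes of platelet-derived growth factor, Notch and pericytes, 26 had a probe set and 22 were tested: 6 rose, 6 fell and 10 were not called (54.5% called, against 46.6% of all probe sets), with a median of 0.06. The 4 called genes of smallest p all rose: Thy1, a surface protein of fibroblasts and T cells (1.74, adjusted p = 3.54e-06), Mcam, the mural and endothelial adhesion molecule CD146 (1.12, adjusted p = 2.38e-05), Vtn, vitronectin (1.37, adjusted p = 6.17e-05), and Anpep, the aminopeptidase CD13 (0.83, adjusted p = 0.00374). Mcam averaged 1368 ± 364 in TG and 626 ± 90.7 in FVB hearts, and Vtn 554 ± 135 in TG and 225 ± 61.8 in FVB hearts (SD, n = 6 and 5). The 6 that fell were named after their values were seen. They were Abcc9, a channel subunit (-0.70, adjusted p = 0.00915), Tek, the endothelial angiopoietin receptor (-0.62, adjusted p = 0.00387), Enpep, an aminopeptidase (-0.77, adjusted p = 0.0055), Rgs2, Hes1 and S1pr1. Which cells of the heart their signal came from was not tested. The S1pr1 probe set carries the family suffix. It read 174 and 502 on the FVB female arrays and 107 to 170 in FVB males, beside 82.9 to 154 in TG hearts. No fit of S1pr1 without the doubted arrays is given. Abcc9 averaged 1547 ± 205 in TG and 2566 ± 674 in FVB hearts. Pdgfb, the ligand of Pdgfrb, averaged 203 ± 66.6 in TG and 255 ± 63.6 in FVB hearts and was not called (-0.41, adjusted p = 0.147). Pdgfra, the sister receptor on fibroblasts, was not called (-0.29, adjusted p = 0.354), nor was Notch3, the Notch receptor of mural cells (0.10, adjusted p = 0.606). No probe set carried the symbol Cspg4 alone. None of these 22 genes was called in either age change, where 0.523% (13 weeks) and 0.671% (40 weeks) of all probe sets were.

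**Figure D5:**
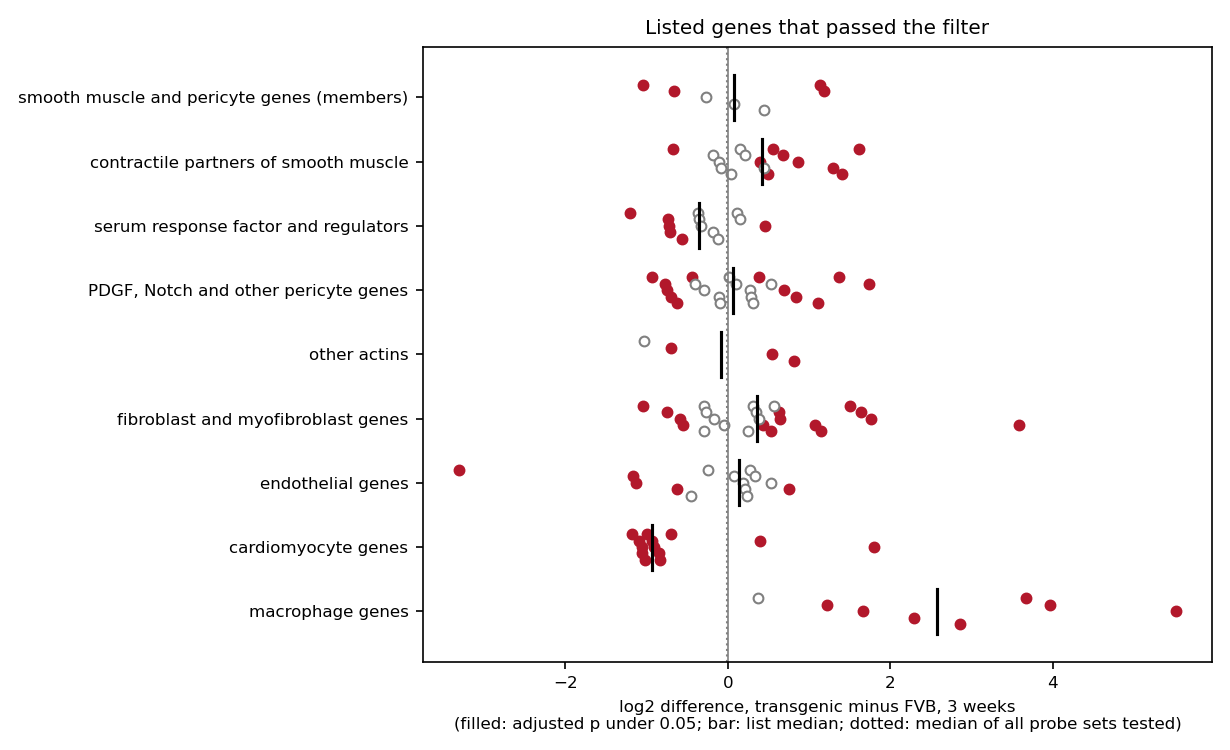
Log2 difference of TG minus FVB hearts at 3 weeks (horizontal axis) for each listed gene that was tested, by list; filled points have an adjusted p under 0.05, the bar is the list's median and the dotted line the median of all probe sets. The contractile partners have a median of 0.42 and the list around serum response factor one of -0.35, while macrophage genes reach 2.58 and heart muscle genes -0.93.

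Marker lists of other cells were also read at 3 weeks. All 13 heart muscle genes tested were called, 2 higher and 11 lower in TG hearts (median -0.93), and their summed signal was 130660 to 242990 in TG and 238310 to 376040 in FVB hearts of 3 weeks. Of 8 macrophage genes tested 7 rose and 1 was not called (median 2.58), with a summed signal of 31937 to 43117 in TG and 3317 to 5591 in FVB hearts. Of 24 fibroblast and myofibroblast genes tested 10 rose, 4 fell and 10 were not called (58.3% called, against 46.6% of all probe sets; median 0.36), with a summed signal of 57924 to 67153 in TG and 40287 to 64973 in FVB hearts. Timp1, a protease inhibitor of activated fibroblasts, rose (1.76, adjusted p = 5.06e-05) and Tcf21, a transcription factor of resident fibroblasts, fell (-0.75, adjusted p = 0.000152). Of 14 endothelial genes tested 1 rose, 4 fell and 9 were not called (35.7% called, below the 46.6% of all probe sets; median 0.14), with a summed signal of 18070.0 to 22108 in TG and 13621 to 28368 in FVB hearts. No gene of these 4 lists was under the floor on all TG or all FVB arrays of 3 weeks. The part of cell makeup in the Acta2, Tagln, Myh11 and Rgs5 results was not tested.

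The genes most like each member were found by Pearson r of log2 signal over the 17 arrays, which share genotype and array effects, so r is a description. Acta2 was most like Minpp1 (0.886), a second Actn1 probe set (0.874) and Tpd52 (0.871), and its r with Tagln was 0.741. Tagln was most like Ppfia4 (0.958), Sec61b (0.955) and Vav1 (0.948), all of them higher in TG hearts at 3 weeks. Myh11 was most like Vps72 (0.759), Tomm40 (0.757) and Rabac1 (0.722), all of them lower. Rgs5, through its brighter probe set, was most like Amacr (0.899), Mff (0.862) and Pparg (0.853), also all lower, and its r with Tagln was -0.736. Pdgfrb was most like Pea15a (0.922), Trim41 (0.921) and Usp3 (0.918), Smtn like Polr2e (0.869), Rab7 (0.842) and Cops7a (0.84), and Actg2 like Ciao2a (0.759), Ssr1 (0.753) and Snhg6 (0.744). The r of Myh11 with Acta2 was -0.327.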

How the data were processed

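Total RNA of whole mouse hearts had been measured on Affymetrix U74Av2 arrays, 1 per sample, per the labels. The deposited values are probe set intensity on a linear scale, which the authors had brought to 1 common level (trimmed means of 499.2 to 499.9). The software and settings behind them are not stated in the labels. Groups, sexes and ages came from the sample titles. Of 18 columns 2 were identical and were counted as 1 array.

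Signals under the pooled 25th percentile (44.675) were raised to it before log2 was taken. Without the 66 control probe sets 12422 were left, and the brightest 60% of them (7453) went into limma 3.58.1 under R 4.3.3 (two-sided tests from lmFit with eBayes, 6 group means, 17 arrays, 11 residual and 4.885 prior degrees of freedom), with Benjamini-Hochberg adjustment over the 7453 within a comparison. The 3 week effect is the equally weighted mean of the female and male differences. The number of arrays limits the precision. The fit was also run on simulated data with independent normal noise. Those data held no array that stands apart, so no result here rests on that run.

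The members and lists were chosen with earlier results of these data known. Every member probe set is named, and of each other list up to 4 called genes of smallest p plus a fixed set, each gene through its brightest probe set, and the 3 genes of highest r per member. Members of those lists with a symbol shared by several genes were not named, and Ctgf, the older symbol of Ccn2, was counted once. Alternatives covered scaling, floor, filter, log offset, variance model, array weights, samples in the fit, the replicate number, the identical columns, doubted arrays and each array left out.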

Additional observations from a re-analysis of the deposited data

Results flagged for a closer look

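The Myh11 signal of 349.7 on the first TG female array of 3 weeks stood apart from the other 5 TG arrays of that age, which lay between 176 and 229. Its gap to the next array was 0.695 of the range of the 6 arrays, above the limit of 0.625 that Dixon's test sets for 6 values. In all, 18 groups of values were tested this way, and chance flags about 1 in 20.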

How the results depend on the processing

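Of 458 alternative values of called member differences, 420 kept direction and call, 38 kept the direction and lost the call, and 0 changed sign. Of 905 values of uncalled differences, 852 stayed as they were, 34 became called and 19 changed sign. Counts of member probe sets called moved as follows, and where no reason is given the cause was not tested. At 3 weeks, in place of 4, there were 6 with both identical columns kept, 5 with the floor at the 40th percentile or log2 of signal plus 50, and 3 with array weights or the brightest 40% of probe sets. In males at 3 weeks, in place of 3, there were 4 with quantile normalisation, that floor, that offset, an intensity trend, array weights, only the groups compared or both identical columns, and 2 without the 3 doubted FVB arrays. In females there were 3 with that floor in place of 2. Between TG females of 40 weeks and FVB females 3 were called with no filter or with the brightest 40%, in place of 4. With a common median 1 was called in TG males of 13 weeks against FVB males, in place of 2. Between TG females of 40 weeks and FVB females 0 were called with array weights and 0 with only the groups compared (fewer arrays), in place of 4, and between TG females of 40 and 3 weeks 0 with only the groups compared, in place of 1. With both identical columns kept, 4 were called in females at 3 weeks in place of 2, and 1 in the sex difference in place of 0. Without the 3 doubted FVB arrays 2 were called at 3 weeks and 2 in TG females of 40 weeks against FVB females, in place of 4 each. With 1 array left out the counts were 3 to 5 at 3 weeks, 2 to 4 in females and 2 to 4 in males, 0 to 2 in the sex difference, 0 to 0 at 13 against 3 weeks, 0 to 1 at 40 against 3 weeks, 0 to 0 in the difference of age changes, and 1 to 2 and 2 to 4 in TG males of 13 weeks and TG females of 40 weeks against FVB. The counts of 4 in females and 2 in the sex difference came without the third FVB female.

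Signs changed for these uncalled values: Actg2 at 3 weeks was -0.041 with quantile normalisation, Smtn in females of 40 against 3 weeks -0.0087 with quantile normalisation and -0.074 with a common median, Rgs5 (brighter probe set) there -0.016 with a common median, Smtn in females at 3 weeks 0.13 with both identical columns, and Pdgfrb -0.056 at 3 weeks and -0.21 in females without the 3 FVB arrays. With 1 array left out, Pdgfrb in females ranged from -0.21 to 1.49, Smtn from -0.75 to 0.21 at 3 weeks and from -1.15 to 0.77 in females, Actg2 from -0.033 to 0.28, Smtn from -0.070 to 0.54 and Pdgfrb from -0.00058 to 0.28 at 13 weeks, and Rgs5 (brighter probe set) from -0.35 to 0.73, Myh11 from -0.079 to 0.42 and Smtn from -0.26 to 0.35 at 40 weeks. The replicate number as a block gave 5 calls at 3 weeks, 2 in females, 4 in males, 0 in the sex difference, 0 at 13 weeks, 1 at 40 weeks and 0 in the difference of age changes, and 2 in TG males of 13 weeks and 4 in TG females of 40 weeks against FVB. The numbers are only shared: same-numbered arrays correlated at -0.336 to 0.466 over 40 pairs, 15 of them over 0.1, and 9 of 17 arrays correlated best with their own number. Signals near the floor limit what can be said of Cnn1.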
